A study of Homo sapiens with 6 samples.

Results

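The enzymes of serine, glycine and folate one-carbon metabolism were described in Y79 cells, an established human retinoblastoma line in which MYCN is amplified. The set holds 10 genes, PHGDH, PSAT1, PSPH, SHMT1, SHMT2, GLDC, AMT, MTHFD1, MTHFD2 and MTHFD1L, which were taken by symbol from a table of 17013 genes with values. All 10 were found. The control group carried a control hairpin RNA and is labelled MYCN wild-type, and the other group carried a hairpin against MYCN and is labelled MYCN knockdown. Each group had 3 libraries of poly(A)-selected RNA, called independent biological replicates in the series text and placed in 1 batch by the labels. Both groups are the same cell line, and neither the hairpin sequences nor the number of hairpins used is given in the sources used here. The question was which transcripts of the pathway differ when the growth-promoting transcription factor MYCN is targeted, and whether the cytosolic and mitochondrial forms of an enzyme differ alike.

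In this pathway 3-phosphoglycerate from glycolysis is turned into serine by PHGDH, PSAT1 and PSPH in turn. Serine hydroxymethyltransferase then splits serine into glycine and a carbon unit that is carried on tetrahydrofolate, and the glycine cleavage system releases a further unit from glycine inside mitochondria. Mitochondrial enzymes (SHMT2, MTHFD2, MTHFD1L) oxidise the unit to formate, which leaves the organelle, and cytosolic enzymes (MTHFD1, SHMT1) use it for purines, thymidylate and methionine. Proliferating cells, those of tumours included, draw on the route for nucleotide synthesis, and MYC proteins and the stress factor ATF4 are known regulators of several of its genes.

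Libraries held 15490263 to 16078416 estimated counts. Levels are given as CPM, the counts of a gene per 1e+06 counts of the library, scaled between libraries by TMM factors, and genes were called at an adjusted p under 0.05 (edgeR quasi-likelihood test, Benjamini-Hochberg over 12819 genes tested). MYCN measured 3046, 3128 and 2876 CPM in the control libraries and 2413, 2284 and 2195 CPM with the MYCN hairpin. It was lower in all 3 libraries, by 0.39 ± 0.043 in log2 units (SE; edgeR, adjusted p = 8.03e-11), and stayed abundant. Markers of photoreceptor cells, 9 of 9 in the table, summed to 2257 to 2390 CPM in control libraries and to 2076 to 2142 CPM in MYCN hairpin libraries. This sum hides opposite changes: 7 of the 9 rose, by 0.17 (GNB3) to 2.45 (THRB) in log2 units, while the abundant OTX2 and NEUROD1 fell by 0.67 and 0.74. Sums were low for markers of fibroblasts and endothelium (3 of 5 in the table; 0.9847 to 1.317 CPM, then 2.562 to 3.511 CPM) and of immune cells (4 of 5; 0.9847 to 1.664 CPM, then 0.9521 to 1.403 CPM). Those of pigment epithelium (4 of 5) stood at 3.61 to 3.801 CPM in controls against 11.25 to 13.24 CPM in the other group, and the part of these cell types in the results was not tested. Müller glia markers summed to 1150 to 1204 CPM over all libraries, nearly all of it from GLUL, which fell by 0.35 from 836.6 to 655.3 CPM, and VIM, which rose by 0.68 from 328.7 to 527.8 CPM, while AQP4 and RLBP1 were at or near 0. The part of the photoreceptor and Müller glia markers in the results below was not tested either.

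Of the 10 enzymes, 8 fell with the MYCN hairpin, SHMT1 rose and AMT was not called. In bulk RNA, fewer cells that express a gene and less of its RNA per cell cannot be told apart. Over all genes tested, 37.9% were called lower, 38.0% higher and 75.8% either way, so that a call by itself was common. The median log2 fold change was -0.48 over the 10 enzymes and -0.61 over the 9 other than AMT, against 0.005 over all genes tested. Abundant transcripts were lower more often than scarce ones: among the 3204 most abundant genes tested, which include 6 of the enzymes, 50.2% were called lower and 33.2% higher, with a median of -0.10. The groups did not overlap for any of the 9 enzymes other than AMT. They also did not overlap for 76.8% of all genes tested. AMT did not overlap either, but it passed the filter on low counts only through the MYCN hairpin libraries, where it was higher. A fall of at least 2-fold was called in 5.25% of all genes and in 2 of the enzymes, GLDC and SHMT2. The share of counts held by the 10 leading genes was 9.391% to 9.742% in controls against 6.673% to 6.854% in the other group. TMM factors were 0.93 to 0.9478 in controls and 1.0587 to 1.0697 in the other group. How far the leading genes account for these factors was not tested. When libraries were scaled by their size alone, the median of all genes moved to 0.19, with 51.5% of genes called higher and 26.1% lower. At that scaling MTHFD2 was no longer called, while no enzyme changed direction. The log2 fold changes of GLDC and SHMT2 were then -1.05 and -0.90, the latter short of 2-fold.

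**Figure D1:**
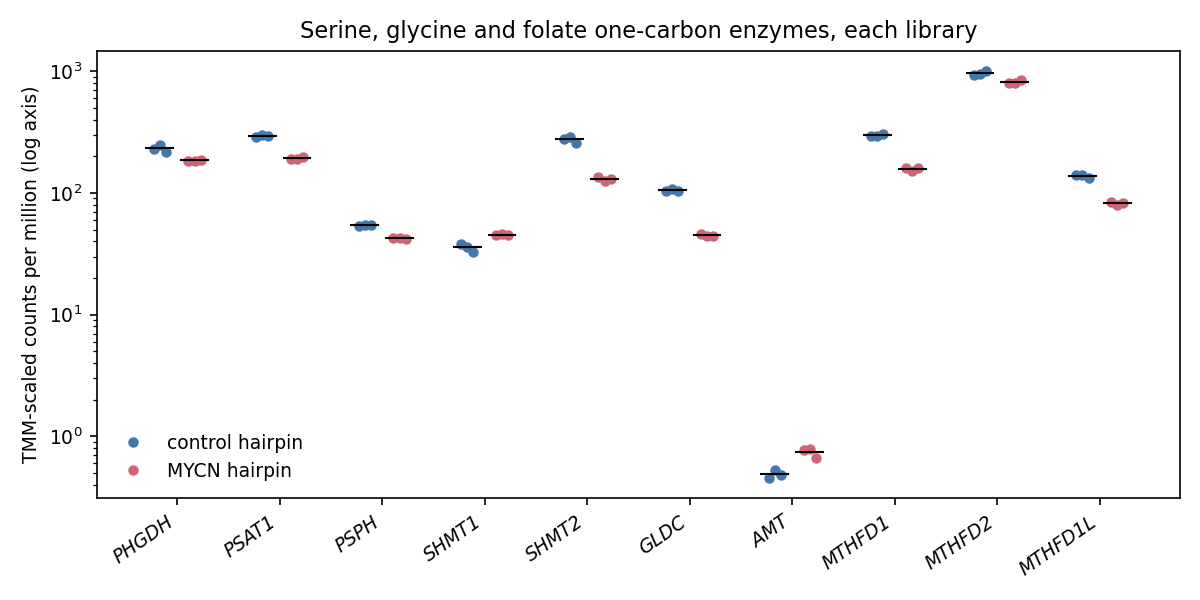
Level of each enzyme in each library, as TMM-scaled CPM on a log axis; points are libraries, blue for the control hairpin and red for the MYCN hairpin, and black lines are group means (n = 3). The red points lie below the blue points for 8 genes and above them for SHMT1 and AMT.

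Motifs of MYC proteins, ATF4 and other factors were looked up at the starts of these genes, since 8 of the 10 transcripts moved the same way. RefSeq promoters (GRCh38.p14, 250 bases before to 50 after a RefSeq start, the first listed where a gene has several) were matched for 8 enzymes, all but PSPH and SHMT2, and 4 motifs were searched on both strands. The 8 matched enzymes are not the 8 that fell, since they include SHMT1, which rose, and AMT, which was not called. CACGTG, the E-box to which MYC and MAX bind, lies in 9.41% of 13399 promoters of the same length and in those of MTHFD1 and MTHFD1L. TGATGNAA, the core of the amino acid response element bound by ATF4 with a C/EBP partner, lies in 1.99% and, of the enzymes, in MTHFD1L. CCAAT, the NF-Y motif, lies in 36.1% and in all 8 matched enzymes, and TGACGTCA, the cyclic AMP response element, in 2.88% and in none of the 8. The windows below run 5′ to 3′ along the gene, with the motif in capitals. They are shown for the motifs of MYC and ATF4 and for the CCAAT motif nearest before the start in 3 genes of the serine and glycine steps.
MTHFD1 E-box (chr14:64388327-64388354, plus strand): cagtccctaagCACGTGggttgggttgt
MTHFD1L E-box (chr6:150866321-150866348, plus strand): acgcccggctcCACGTGcgcagccggcc
MTHFD1L TGATGNAA (chr6:150866346-150866375, plus strand): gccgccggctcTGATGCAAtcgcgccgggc
PHGDH CCAAT (chr1:119711852-119711878, plus strand): agtatttccgtCCAATcaaaaggagac
PSAT1 CCAAT (chr9:78297062-78297088, plus strand): gacagcacgggCCAATggggcgccgac
GLDC CCAAT, on the opposite strand as ATTGG (chr9:6645768-6645794, minus strand): tgtctactttcATTGGccaagggcttc
The E-box of MTHFD1 starts 15 bases before the RefSeq start used and that of MTHFD1L 154 bases before its own, with the TGATGNAA match 129 bases before it. These starts differ from the outermost GENCODE ends given with the genes, so a window can lie inside such a span. These are matches of letters and show no binding.

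The enzymes of serine synthesis were all lower with the MYCN hairpin, and none by as much as 2-fold. PHGDH, which oxidises 3-phosphoglycerate in the first committed step (chromosome 1, 119648411 to 119744226, GRCh38), measured 230.7, 245.4 and 218.6 CPM in controls, against 183.9, 182.9 and 187.4 CPM with the MYCN hairpin. The lowest control library stood above the highest MYCN hairpin library. PHGDH fell by 0.33 ± 0.041 in log2 units (SE; edgeR, adjusted p = 2.07e-09), to 79.8% of control. PSAT1, the aminotransferase of the next step (chromosome 9, 78297143 to 78330093), had 288.6, 297.6 and 294.4 CPM in controls, against 190.1, 190.7 and 197.1 CPM with the MYCN hairpin. Its groups were far apart relative to the spread within them, and it fell by 0.61 ± 0.038, to 65.6% of control (adjusted p = 3.67e-18). PSPH, the phosphatase that releases serine (chromosome 7, 56011051 to 56051604), went from 54.13 ± 0.66 to 42.45 ± 0.51 CPM (SD, n = 3). This was a fall by 0.35 ± 0.053, to 78.4% of control (adjusted p = 1.72e-07). With library sizes alone, the log2 fold changes of PHGDH (-0.15, adjusted p = 0.00149) and PSPH (-0.17, adjusted p = 0.00472) were closer to 0 and that of PSAT1 was -0.43. PSAT1 has 4 annotated pseudogenes and PSPH has 1, and the counts of PSPH are not whole numbers. Reads that could match a copy make the levels of both less certain.

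The mitochondrial and cytosolic forms of serine hydroxymethyltransferase moved in opposite directions. SHMT2, the mitochondrial form (chromosome 12, 57229327 to 57234935), measured 277.2, 290.1 and 258.2 CPM in controls, against 135.7, 125.2 and 130.1 CPM with the MYCN hairpin. Every MYCN hairpin library stood far below every control library, and SHMT2 fell by 1.08 ± 0.043 on the log2 scale (adjusted p = 8.29e-25), to 47.4% of control. SHMT1, the cytosolic form (chromosome 17, 18327860 to 18363563), measured 38.14, 35.81 and 33.0 CPM in controls, against 44.98, 45.9 and 44.72 CPM with the MYCN hairpin. It was the only one of the 10 to be called higher, by 0.34 ± 0.059 (adjusted p = 1.96e-06), or 127.0% of control, and by 0.52 with library sizes alone. Exons of SHMT2 overlap those of NDUFA4L2 and an antisense gene by up to 427 bases, and exons of SHMT1 overlap SMCR8 on the opposite strand. Whether counting used strand is not given in the sources used here, so reads in these overlaps cannot be assigned. SHMT1 has 1 annotated pseudogene, and its counts in MYCN hairpin replicates 2 and 3 (760.58 and 732.65) are not whole numbers. Reads that could match the copy make its level less certain.

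Of the glycine cleavage system, GLDC changed most. GLDC encodes the decarboxylase that starts glycine breakdown (chromosome 9, 6532464 to 6645783). It measured 104.2, 108.4 and 104.2 CPM in controls, against 46.06, 44.45 and 44.17 CPM with the MYCN hairpin, a narrow spread on both sides of a wide gap. It had the lowest log2 fold change of the 10 and fell by 1.23 ± 0.049 (adjusted p = 4.98e-25), to 42.5% of control. AMT encodes the aminomethyltransferase that passes the carbon unit to folate (chromosome 3, 49416775 to 49422753). It was near the detection limit, with 7, 8 and 7 counts in the control libraries and 13, 13 and 11 with the MYCN hairpin. The ratio of its scaled counts was 1.51, with an exact 95% counting interval of 0.867 to 2.68, and its log2 fold change of 0.59 ± 0.375 did not pass (adjusted p = 0.153). AMT passed the filter on low counts only through the MYCN hairpin libraries, none of the control libraries reaching 0.6394 CPM, and a gene annotated on the same strand shares 3624 bases of its exons. The other subunits were abundant: GCSH, the lipoyl carrier protein, fell by 0.42 ± 0.043 from 159.2 ± 8.5 to 118.7 ± 3.5 CPM (adjusted p = 1.09e-11). DLD, the dihydrolipoamide dehydrogenase shared with other mitochondrial complexes, rose by 0.10 ± 0.042 from 140.3 ± 6.7 to 150.8 ± 2.1 CPM (adjusted p = 0.0228). The call of DLD was lost without control replicate 1 or 2 or MYCN hairpin replicate 2 or 3, with an adjusted p of up to 0.135, and GCSH has 5 annotated pseudogenes.

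Among the folate enzymes that oxidise or form the carbon unit, all 3 genes were lower, by very different amounts. MTHFD1, the cytosolic enzyme with dehydrogenase, cyclohydrolase and formyl-tetrahydrofolate synthetase activities (chromosome 14, 64388031 to 64463457), measured 291.3, 295.0 and 302.3 CPM in controls, against 160.0, 150.4 and 159.4 CPM with the MYCN hairpin. Its groups were well separated, and it fell by 0.92 ± 0.039 on the log2 scale (adjusted p = 7.33e-24), to 52.9% of control. Up to 756 bases of its exons overlap genes on the opposite strand, and it has 1 annotated pseudogene. Its count in control replicate 1 (4436.99) is not a whole number. MTHFD1L, the mitochondrial synthetase that releases formate (chromosome 6, 150865549 to 151101887), measured 139.6, 141.4 and 131.8 CPM in controls, against 84.08, 79.5 and 82.85 CPM with the MYCN hairpin. It fell by 0.74 ± 0.044, to 59.7% of control (adjusted p = 6.19e-19).

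MTHFD2, the mitochondrial dehydrogenase and cyclohydrolase (chromosome 2, 74198562 to 74217565), was the most abundant of the 10 and had the smallest called fall. It measured 936.3, 953.5 and 1001.0 CPM in controls, against 804.2, 795.4 and 839.5 CPM with the MYCN hairpin. The groups did not overlap, and it fell by 0.24 ± 0.040 (adjusted p = 5.79e-07), to 84.4% of control. This call rests on the scaling: with library sizes alone the log2 fold change was -0.06 (adjusted p = 0.106), below the median of 0.19 of all genes at that scaling. MTHFD2 has 7 annotated pseudogenes and its counts are not whole numbers, and up to 1324 bases of its exons overlap a gene on the opposite strand.

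**Figure D2:**
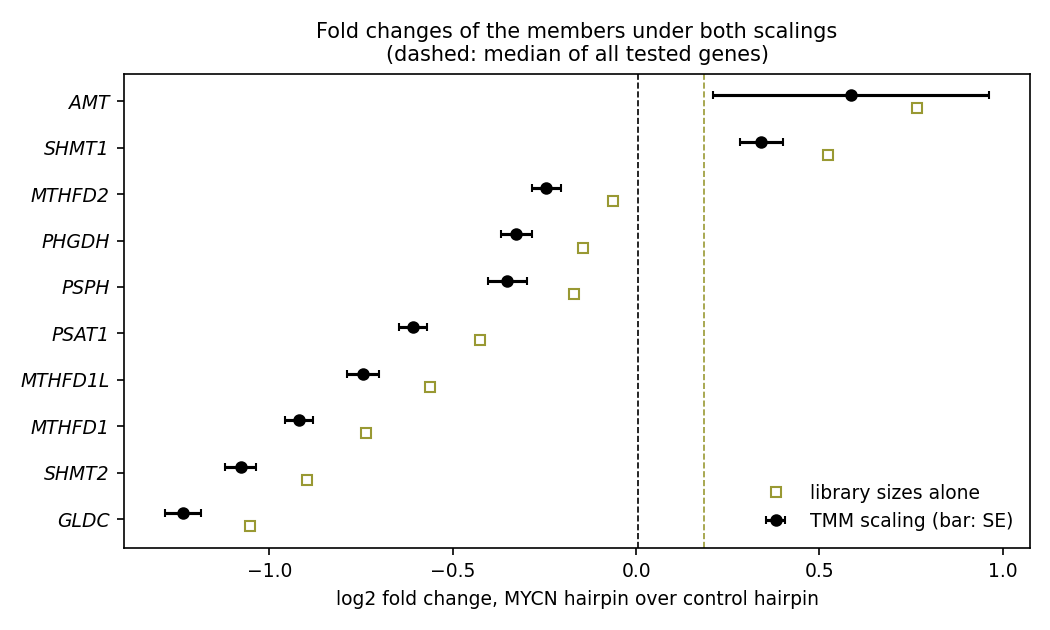
Log2 fold change of each enzyme, MYCN hairpin over control hairpin; black points with SE bars use TMM scaling, open squares use library sizes alone, and dashed lines mark the median of all genes tested at each scaling (0.005 and 0.19). The order of the genes runs from GLDC to AMT at both scalings, and MTHFD2 lies nearest to 0.

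The balance of mitochondrial to cytosolic isoenzyme was taken as the ratio of counts of the 2 genes within a library, whose change depends neither on scaling between libraries nor on gene length. The ratio of SHMT2 to SHMT1 was 7.263, 8.094 and 7.818 in controls and 3.016, 2.726 and 2.907 with the MYCN hairpin. It fell by 1.42 on the log2 scale (95% interval -1.59 to -1.26), or 2.68-fold, and the groups lay far apart. The ratio of MTHFD2 to MTHFD1 moved the other way, from 3.214, 3.232 and 3.31 to 5.026, 5.287 and 5.265, a change of 0.67 (0.59 to 0.76), or 1.6-fold. The ratio of MTHFD1L to MTHFD1 was 0.4794, 0.4796 and 0.436 in controls and 0.5256, 0.5286 and 0.5198 with the MYCN hairpin. This was a change of 0.18 (0.07 to 0.28), or 1.13-fold, with groups that did not overlap but lay close together. Relative to the cytosolic form, the mitochondrial form therefore lost ground in the serine hydroxymethyltransferase pair and gained it in both MTHFD pairs. The MTHFD pairs share MTHFD1 and are not independent. All their genes fell, MTHFD1 most (log2 fold change -0.919, against -0.245 for MTHFD2 and -0.745 for MTHFD1L).

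All 3 changes in ratio were called when every gene was fitted as its ratio to the cytosolic enzyme in the same library (limma, adjusted p = 1.57e-61 for SHMT2, 2.2e-39 for MTHFD2 and 0.00154 for MTHFD1L). In that fit 76.0% of genes were called relative to SHMT1 and 92.9% relative to MTHFD1, so a call was the common outcome for every pair. These p-values tend to be too small, because the error of the cytosolic gene enters every ratio of the fit. Without variance trend and robust estimation the adjusted p-values were 7.45e-06, 1.3e-05 and 0.0211 (limma). The difference of the edgeR log2 fold changes gave 95% intervals of -1.62 to -1.22 for SHMT2 against SHMT1, 0.52 to 0.83 for MTHFD2 against MTHFD1 and 0.01 to 0.34 for MTHFD1L against MTHFD1. The two-sided exact permutation test over samples gave p = 0.1 for each of the 3 pairs, which is the smallest that 3 against 3 libraries allow (adjusted p = 0.1).

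**Figure D3:**
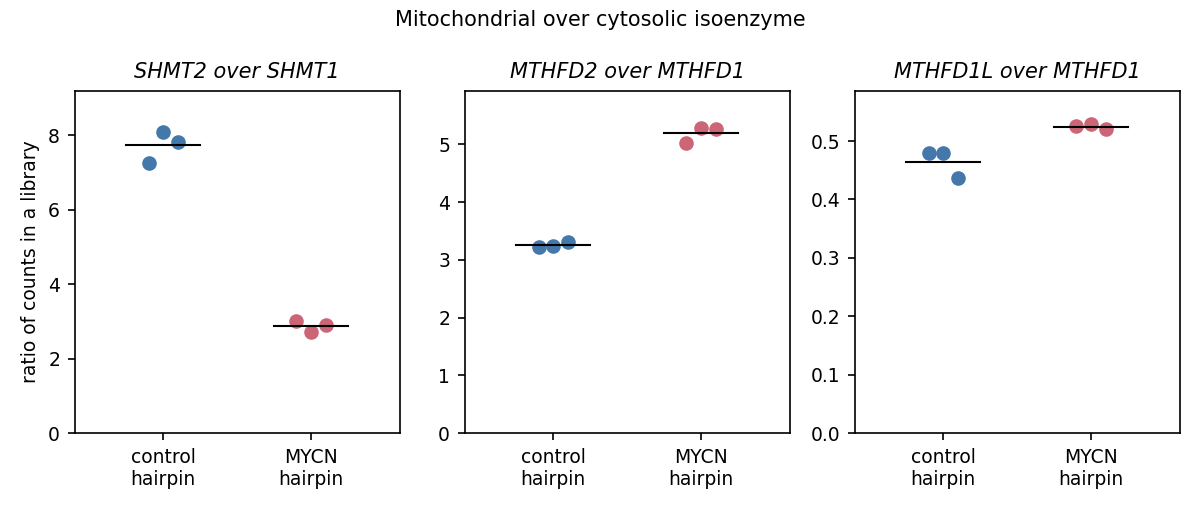
Ratio of counts of the mitochondrial to the cytosolic isoenzyme in each library, 1 panel per pair, each axis starting at 0; points are libraries and black lines group means (n = 3). The ratio is lower with the MYCN hairpin for SHMT2 over SHMT1 and higher for MTHFD2 and MTHFD1L over MTHFD1.

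A 4th pair, the formyl-tetrahydrofolate dehydrogenases ALDH1L2 (mitochondrial) and ALDH1L1 (cytosolic), was too scarce to compare. ALDH1L2 had 5 counts in all controls and 2 with the MYCN hairpin, and ALDH1L1 had 0 and 6. Neither passed the filter on low counts.

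Levels per length, as CPM per kilobase of merged exons, placed MTHFD2 first among the 10 in controls at 197.8 ± 6.8 (SD, n = 3), followed by PSAT1 at 134.2 ± 2.1 and SHMT2 at 56.88 ± 3.3. MTHFD1 (31.59 ± 0.60), MTHFD1L (27.41 ± 1.0) and PHGDH (25.13 ± 1.5) came next, and the libraries of the last 2 overlapped. PSPH (19.6 ± 0.24), GLDC (11.81 ± 0.27), SHMT1 (4.896 ± 0.35) and AMT (0.08576 ± 0.0065) followed without overlap between neighbours. With the MYCN hairpin PHGDH moved from 6th to 4th place (20.04 ± 0.25) and SHMT1 (6.208 ± 0.085) passed GLDC (5.022 ± 0.11). These places depend on the length used. Per kilobase of 1 representative transcript, PHGDH stood 5th in controls at 89.59 and MTHFD1 at 94.45, and their libraries overlapped. Of serine hydroxymethyltransferase transcripts counted per length of merged exons, SHMT2 made up 92.07 ± 0.41% in controls and 81.25 ± 0.78% with the MYCN hairpin, and 88.23 ± 0.58% and 73.67 ± 1.0% per length of 1 transcript.

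Of 50 further genes of the pathway, fixed as lists by role, 49 were in the table and 40 were tested: 25 fell, 13 rose and 2 were not called, with a median log2 fold change of -0.33. Over all genes tested 37.9% were called lower and 38.0% higher, with a median of 0.005. FTCD and DMGDH passed the filter on low counts only through the control libraries and SDSL only through the MYCN hairpin libraries, and they are included in these counts. The carriers that feed the mitochondrial branch were split. SLC25A32, the folate carrier of the inner mitochondrial membrane, fell by 1.24 ± 0.054 from 76.38 ± 1.2 to 32.4 ± 0.65 CPM (adjusted p = 1.08e-23). A gene annotated on the same strand shares 2547 bases of its exons, which makes its level less certain. SFXN3, a paralogue of the mitochondrial serine carrier SFXN1, fell by 1.04 from 67.42 ± 2.0 to 32.76 ± 0.33 CPM. SFXN1 itself rose by 0.12 ± 0.040 from 166.8 ± 2.4 to 181.1 ± 6.3 CPM (adjusted p = 0.00686), a call lost without MYCN hairpin replicate 1 (adjusted p = 0.0692). SFXN2 was not called (log2 fold change -0.08, adjusted p = 0.147).

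Genes that use or recycle the carbon unit were also mixed. TYMS, which makes thymidylate and oxidises the folate in doing so, rose by 0.59 ± 0.038 from 426.8 ± 7.3 to 644.3 ± 5.7 CPM, although its exons overlap ENOSF1 on the opposite strand. The formyl folate users of purine synthesis, GART (-0.40) and ATIC (-0.49), both fell. Among other folate enzymes MTHFD2L, the mitochondrial paralogue of MTHFD2, fell by 0.53 from 26.37 ± 2.4 to 18.25 ± 0.59 CPM, and FTCD, of histidine breakdown, from 113 to 25 counts. MTHFS rose by 0.74.

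Calls in each list below stand beside 37.9% called lower and 38.0% called higher over all genes tested. Of the folate uptake and retention genes 2 rose and 2 fell. GGH, which trims the polyglutamate tail of folates, rose by 0.73 from 34.68 ± 2.0 to 57.6 ± 2.3 CPM and the proton-coupled carrier SLC46A1 by 0.38. Exons of SLC46A1 overlap genes on the opposite strand by up to 4421 bases. FPGS, which adds the tail, fell by 0.32 and the reduced folate carrier SLC19A1 by 0.32. In the methionine cycle 4 of 5 tested genes fell, among them MAT2A (-0.56), which makes S-adenosylmethionine, and MTRR (-0.52), whereas MTR, methionine synthase, rose by 0.17. Of 8 tested genes of serine use 5 fell, with CTH of the transsulfuration route lowest at -1.57 (30.44 ± 2.1 to 10.26 ± 1.5 CPM) and PTDSS1, a phosphatidylserine synthase, at -1.10. Serine racemase SRR (0.75) and SDSL (1.68, from 21 to 76 counts) rose. DMGDH, of choline-derived carbon in mitochondria, fell from 50 to 6 counts, and SARDH rose by 0.43.

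Plasma membrane carriers of serine and glycine were split as well. SLC1A5 fell by 0.93 from 234.1 ± 16.5 to 122.6 ± 2.9 CPM and SLC38A1 by 0.65, while SLC1A4 rose by 0.94 from 96.17 ± 3.7 to 185.1 ± 1.3 CPM and SLC38A2 by 0.31. Of the regulators, ATF4 fell by 0.86 ± 0.040 from 539.7 ± 23.3 to 297.7 ± 4.6 CPM (adjusted p = 9.7e-23) and MAX, the partner of MYC proteins, by 0.65. MYC was near the limit of detection, with 17 counts summed over the control libraries (0.3802 ± 0.029 CPM) and 153 over those of the MYCN hairpin (3.072 ± 0.75 CPM). It passed the filter on low counts only through the latter, and both levels are far below that of MYCN. NFE2L2 was not called (log2 fold change 0.10, adjusted p = 0.103), but was called higher with library sizes alone (0.28). Their part in the changes of the enzymes was not tested.

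**Figure D4:**
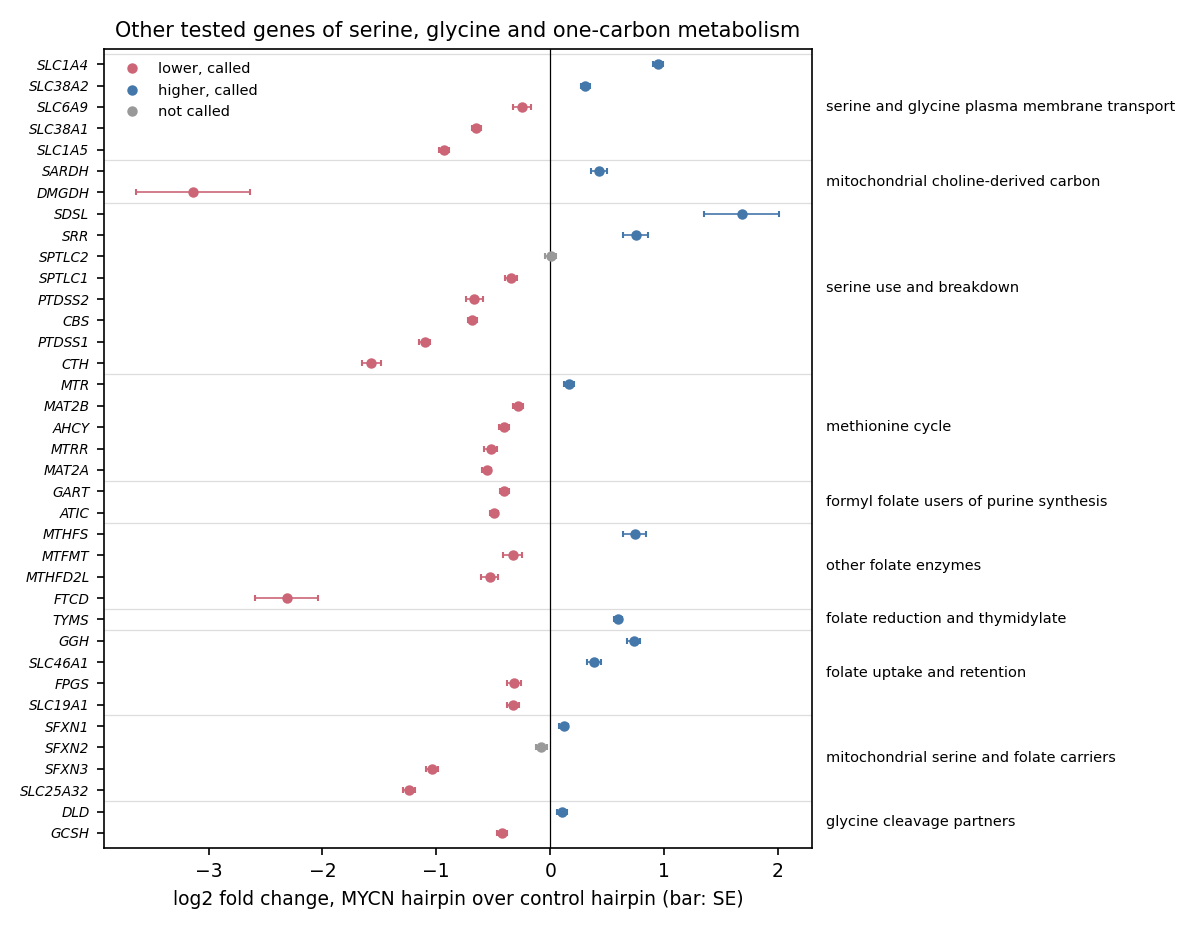
Log2 fold change with SE of 37 other tested genes of serine, glycine and folate metabolism, MYCN hairpin over control hairpin, grouped by the lists named at the right; red genes were called lower, blue higher and grey not called. Red and blue points occur in 8 of the 10 lists drawn, while the formyl folate users of purine synthesis hold only red points and the thymidylate list shows TYMS alone, in blue.

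Pieces of 7 bases from the MYCN transcript, AGCACAA and GTGGATC, were looked for in the enzymes. They came from an earlier look at these fold changes and support nothing by themselves. Either one lies in 38.9% of 12508 tested genes with a GENCODE 29 transcript and in 4 of the 10 enzymes. The copies are shown 5′ to 3′ for MYCN and GLDC (both pieces) and for 1 copy in each of MTHFD1, PHGDH and SHMT1, with the shared bases in capitals.
MYCN, coding region: ccaccagcAGCACAActatgccg
MYCN, coding region: ccgagtgcGTGGATCccgccgtg
GLDC, coding region: ggtggataAGCACAAggagaacc
GLDC, coding region: gatttgttGTGGATCtttggttg
MTHFD1, coding region: aagggaaaAGCACAActacaatc
PHGDH, coding region: tggacaatGTGGATCtggaggcc
SHMT1, 3′ UTR: ttttaataAGCACAAtcaaattt
GLDC, MTHFD1 and SHMT1 carry both pieces, a share not counted over all genes, PHGDH carries GTGGATC, and the other members carry neither. Of these carriers SHMT1 was called higher, and 4 of the 10 enzymes is close to the 38.9% of all genes. A part of these pieces in the changes was not tested.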

How the data were processed

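The authors deposited estimated counts per gene symbol for 6 libraries, not scaled between them; 12.508% to 12.831% of values are not whole. GRCh38 is the build named in the submitters' processing notes. No aligner, counter or strand setting is given in the labels or file header. Of 17035 rows, 22 without values were left out. Counts were rounded, filtered with filterByExpr (minimum 10 counts) and tested with edgeR 4.0.16 (quasi-likelihood, robust, TMM) in R 4.3.3. Standard errors were derived from the F statistic. Isoenzyme ratios used a prior count of 0.5 and limma 3.58.1. Levels per length, positions and overlaps used GENCODE 29. Counting intervals are exact at 95% and cover counting error only. Replicates differed beyond sampling noise (chi-square per degree of freedom 1.732 to 4.232), and p-values measure spread between these libraries. The methods were tested on simulated data. Alternatives were DESeq2 1.42.0, limma-voom, other scalings and filters, a replicate block and each library left out. Named genes were all 10 enzymes and, per further list, the 2 genes with the smallest adjusted p in each direction among those called, of which 3 are left out of the text and plots. The members and lists were chosen with earlier results of these data known.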

Additional observations from a re-analysis of the deposited data

How the results depend on the processing

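Across the scalings, tools, filters, replicate block and left-out libraries that were run, no enzyme and no isoenzyme ratio changed direction, and the calls of the enzymes held with 1 exception: MTHFD2 was not called with library sizes alone (log2 fold change -0.063, adjusted p = 0.106). AMT stayed uncalled wherever it was tested and was not tested with a filter of 1 CPM in 3 libraries. Among the further genes named or drawn here, calls of DLD (without control replicate 1 or 2 or MYCN hairpin replicate 2 or 3, by DESeq2 and without a filter), SFXN1 (without MYCN hairpin replicate 1), MTFMT and SLC6A9 (library sizes alone) were lost. SFXN2 gained a call without control replicate 3 (-0.12). SPTLC2 (0.18) and NFE2L2 (0.28) gained a call with library sizes alone. Leaving out a library kept GLDC between -1.25 and -1.22, SHMT2 between -1.13 and -1.04, SHMT1 between 0.28 and 0.39 and MTHFD2 between -0.27 and -0.22. With library sizes alone 6597 of all genes were called higher and 3348 lower, against 4865 and 4857 with TMM. Same-numbered libraries had correlations of 0.1061, 1e-04 and 0.1614 between their deviations from the group means, so the numbers were not taken as pairs; control replicate 2 correlated best with MYCN hairpin replicate 1 (0.0757). With the replicate block 8 enzymes were again lower and 1 higher. Per kilobase of 1 transcript in place of merged exons, control levels in CPM were 89.59 for PHGDH, 24.85 for PSPH, 14.47 for SHMT1, 108.5 for SHMT2, 27.08 for GLDC, 0.2161 for AMT, 94.45 for MTHFD1, 216.2 for MTHFD2 and 38.19 for MTHFD1L. The depth limits AMT, ALDH1L1 and ALDH1L2. The ratio of ALDH1L2 to ALDH1L1 had no value where the filter on low counts was applied.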
